A study of Mus musculus with 6 samples.

Results

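Histones are the proteins that DNA is wound on, and the genes compared here encode the 4 core types (H2A, H2B, H3 and H4) and the linker type H1. They were taken as every symbol in the tables that began with Hist1h, Hist2h, Hist3h, Hist4h, H1f, H2ac, H2bc, H3c, H4c, H2af, H2bf or H3f, with symbols beginning H2al or H2ap left out. This gave 74 of 25165 symbols. By symbol, 61 were clustered genes, 6 were testis variants (H1f7, H1f6, H2ac1, H2bc1, H2bfm and H3f4), 6 were general variants (H3f3a, H3f3b, H3f3c, H1f10, H1f0 and H2afy3) and 1 was the oocyte linker gene H1f8. The clustered set held 5 H1, 17 H2A, 15 H2B, 12 H3 and 12 H4 genes, of which 50 were placed on chromosome 13 and 10 on chromosome 3. Hist1h2ap, ambiguous in the RefSeq annotation, is in neither count, though the GENCODE annotation has it on chromosome 13. Variants that the tables name outside these prefixes, such as H2az1 and H2ax, are not among the 74.

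RNA-seq was made from whole testis of C57BL/6 mice aged 8 weeks, with 3 libraries titled KO, from mice deficient for the long noncoding RNA Teshl (NR_038002, listed as 1700027A15Rik), and 3 titled WT, from wild-type mice. The genotype field of the labels states the opposite of the titles, and libraries are grouped here by title. Teshl was at 0.385, 0 and 0 FPKM in the KO libraries and at 1028, 989 and 1081 FPKM in the WT libraries, which goes with the titles. The labels give neither how the deletion was made nor the number of animals, so each p-value reflects spread among libraries, part of which may be technical.

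Clustered histone genes are expressed mainly while DNA is copied, and in testis this is in spermatogonia and in spermatocytes before meiosis. Their messages are unusual in ending at a short stem-loop in place of a poly(A) tail. General variants are made throughout the cell cycle from polyadenylated messages, while testis variants are made in male germ cells, several of them during meiosis or in spermatids, before transition proteins and protamines take the place of most histones in sperm.

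The stem-loop was a feature that the choice by symbol did not use. The pattern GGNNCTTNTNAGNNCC on the sense strand was searched in annotated 3′ untranslated regions (GENCODE M21). Of the 61 clustered genes, 47 had such a region long enough to hold it and 42 of these 47 did (89.4%), against 93 of 21111 genes in the whole annotation (0.441%). None of the 4 general variants with a region long enough held it. Among testis variants 3 had a region long enough, and 2 of these, H1f6 and H2bfm, held it. The 9 windows below (GRCm38) are those of the clustered genes whose levels are described most closely and of both testis variants, written 5′ to 3′ on the strand of the gene, with the stem-loop in capitals and 5 flanking bases on each side.
H2ac18, chr3:96246027-96246052, plus strand: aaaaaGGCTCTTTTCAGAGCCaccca
Hist1h2bp, chr13:21787918-21787943, plus strand: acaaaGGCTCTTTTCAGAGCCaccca
H3c1, chr13:23761885-23761910, minus strand: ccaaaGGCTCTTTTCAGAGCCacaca
H1f2, chr13:23739507-23739532, plus strand: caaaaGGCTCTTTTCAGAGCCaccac
H4c1, chr13:23760795-23760820, minus strand: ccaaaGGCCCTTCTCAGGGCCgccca
H4c3, chr13:23698084-23698109, minus strand: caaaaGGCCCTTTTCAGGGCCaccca
H4c8, chr13:23531453-23531478, plus strand: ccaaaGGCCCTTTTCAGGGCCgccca
H1f6, chr13:23696520-23696545, plus strand: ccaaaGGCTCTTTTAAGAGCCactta
H2bfm, chrX:136928066-136928091, plus strand: ccaaaGGCTCTTTTCAGAGCCaccac

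The stem was read as the first 5 bases of the pattern. It was GGCCC in 9 and GGTCC in 2 of the H4 genes with a stem-loop, while all 33 other members with one, of the types H1, H2A, H2B and H3, had GGCTC. Of 43 members with a stem-loop and an annotated RefSeq end, 36 ended 3 to 6 bases past it. Among the exceptions were Hist1h2bp and H2bfm, whose windows are shown above. The RefSeq end of Hist1h2bp lay 13623 bases past its stem-loop. H2bfm held a further stem-loop that is not shown, and its RefSeq end lay 191 bases past that one. The polyadenylation signal AATAAA stood in the 3′ untranslated region of all 4 general variants with one, and of 14 of the 47 clustered genes, 11 of which also held the stem-loop. Among the 10 clustered genes with the highest mean level, 7 had the stem-loop, and the other 3 were H2bc4, H2bc21 and Hist1h2bq.

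Promoters were read as 250 bases before to 50 after the RefSeq start (GRCm38.p6), available for 66 members, and searched on both strands for TATAAA as the core promoter element, for CCAAT as an upstream box and for the octamer ATTTGCAT. Among clustered genes, TATAAA was in 32 of 55 windows (58.2%, against 13.6% of all 32851 promoters), CCAAT in 47 (85.5%, against 37.4%) and the octamer in 11 (20.0%, against 1.74%). CCAAT was in every window of the clustered H1, H2A, H2B and H3 genes and in 3 of the 11 H4 windows. Among clustered genes the octamer was in H2A and H2B windows alone. Some H2A and H2B genes lie head to head so closely that their windows overlap, as with H2ac11 and H2bc11. A single site can then be counted for both genes, so these are counts of windows and not of separate sites. Of 6 testis variant windows, TATAAA was in 3, CCAAT in 5 and the octamer in 2. Of 5 general variant windows, TATAAA was in 1, CCAAT in 2 and the octamer in 1. H2bc1 and H2ac1, the testis H2B and H2A genes, lie head to head on chromosome 13 with 280 bases between them, so that their windows overlap by 220 bases. The octamer counted in 2 testis variant windows is a single site that both of these windows hold. The 250 bases before H2bc1 are shown because both genes share most of them. Capitals mark 1 TATAAA match, 4 CCAAT matches and 1 octamer, counted on either strand.
H2bc1, chr13:23934157-23934406, minus strand: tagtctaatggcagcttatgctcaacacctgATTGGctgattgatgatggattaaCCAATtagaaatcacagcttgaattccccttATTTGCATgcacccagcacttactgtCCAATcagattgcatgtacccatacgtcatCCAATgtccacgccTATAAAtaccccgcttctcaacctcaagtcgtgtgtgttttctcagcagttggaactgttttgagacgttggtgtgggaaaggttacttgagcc

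Levels are in FPKM, which are fragments scaled to transcript length and library depth. Whether RNA was selected by its poly(A) tail is not given, so levels of clustered genes beside those of polyadenylated variants are uncertain. Spacing of the lowest values placed library depth between 27900000 and 39600000 fragments, at which 3 fragments on a transcript of 500 bases are 0.151 to 0.215 FPKM. Libraries correlated at 0.991 to 0.993 within KO, 0.989 to 0.992 within WT and 0.981 to 0.991 between the groups. Differences were tested with limma on log2(FPKM + 1), KO minus WT, over the 12952 genes that averaged 1 FPKM or higher in KO or in WT. On this scale changes of low genes are understated. With p-values adjusted by the Benjamini-Hochberg method over all 12952 genes and a threshold of 0.05, 149 genes were called (1.15%), 102 higher (0.788%) and 47 lower (0.363%) in KO.

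The 74 members, without the histone genes listed under other prefixes, made up 0.361% to 0.389% of all FPKM in a library. Of this, 4 genes held 74.0% to 75.5%. These 4 were H1f7, H2ac18, H3f3a and H3f3b, each with a mean of at least 100 FPKM. A further 10 members lay between 10 and 100 FPKM, 30 between 1 and 10, and 30 below 1. The median of the members' means was 1.06 FPKM for clustered genes, 31.2 for general variants and 11.5 for testis variants. Of the 74 members, 45 passed the level filter: 33 clustered genes and all 6 of each variant class. In limma, 0 of these 45 were called, beside 1.15% of all genes, and 8 (4 higher, 4 lower) had an unadjusted p under 0.05, beside 14.3% of all genes. The KO and WT libraries did not overlap in 6 of the 45, beside 21.7% of all genes. The median difference was -0.02 over the 45 members and -0.04 over all genes tested.

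**Figure D1:**
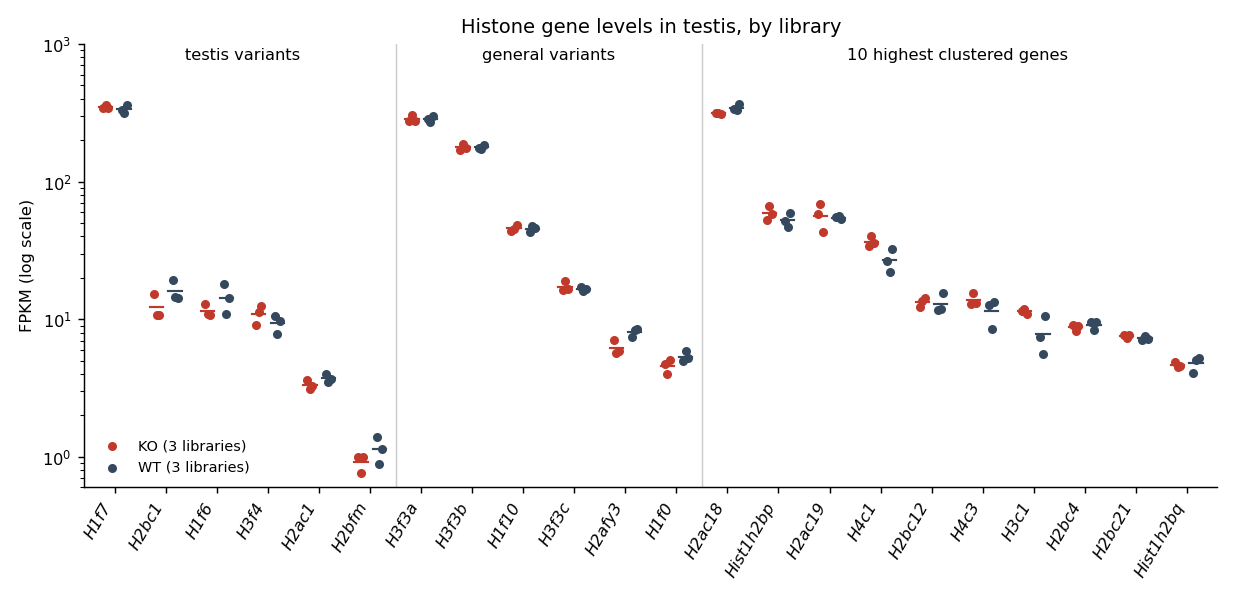
FPKM on a log axis (vertical) of the 6 testis variants, the 6 general variants and the 10 clustered genes with the highest means (horizontal), with 1 point per library, KO left of WT, and a bar at the group mean. H1f7, H3f3a, H3f3b and H2ac18 stand above 100 FPKM in every library, and the KO and WT points overlap for most genes.

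Among testis variants, H1f7 (H1T2), a linker histone of spermatids, had the highest mean over the 6 libraries of any member. H2ac18, summed over its 2 rows, was above it in every WT library. H1f7 was at 342, 363 and 342 FPKM in KO libraries 1, 2 and 3, against 334, 314 and 362 FPKM in WT libraries 1, 2 and 3. The 2 groups overlapped, with the lowest and nearly the highest value both in WT. The difference was 0.05 (SE 0.06, 95% interval -0.08 to 0.19, limma adjusted p = 0.669). H1f7 supplied 81.2% to 84.3% of the FPKM of the 10 H1 members in each library. This share leaves out Hils1, a linker-like histone of spermatids listed under another prefix. Hils1 was at 435 to 536 FPKM and above H1f7 in every library. It lies on chromosome 15 outside the arrays, and its 3′ untranslated region of 84 bases held neither stem-loop nor AATAAA.

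H1f6 (H1t), the linker histone of spermatocytes, lies within the chromosome 13 array. It was at 12.96, 10.9 and 10.7 FPKM in the KO libraries, against 18.1, 10.8 and 14.2 FPKM in the WT libraries. WT replicate 2 lay among the KO values, and the difference of -0.27 did not pass the test (SE 0.17, limma adjusted p = 0.479). It was -0.10 without WT replicate 1 and -0.45 without WT replicate 2. H2bc1 (TH2B), the H2B that replaces the ordinary form in meiosis, was at 15.2, 10.7 and 10.8 FPKM in the KO libraries, against 19.4, 14.6 and 14.3 FPKM in the WT libraries. KO replicate 1 lay above WT replicates 2 and 3, while KO replicates 2 and 3 lay below all of WT. The difference was -0.38 (SE 0.16, 95% interval -0.76 to 0.01, limma adjusted p = 0.358).

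H2ac1 (TH2A), the H2A partner of H2bc1 across the shared promoter region, was at 3.63, 3.10 and 3.26 FPKM in the KO libraries, against 4.02, 3.50 and 3.66 FPKM in the WT libraries. The groups overlapped at 1 point, KO replicate 1 above WT replicate 2, and the difference was -0.13 (SE 0.08, limma adjusted p = 0.452). In both genes of the head-to-head pair replicate 1 was the highest library of its group. Both genes share runs of 50 bases with other members and overlap the annotated gene Gm33516, so the assignment of reads to them is uncertain. H3f4 (H3t), the testis H3, was at 9.01, 11.4 and 12.4 FPKM in the KO libraries, against 10.5, 7.86 and 9.64 FPKM in the WT libraries. The groups overlapped and the difference was 0.21 (SE 0.13, limma adjusted p = 0.477). H3f4 overlaps Trim17, so its reads carry the same uncertainty. H2bfm, an H2B gene on the X chromosome, was the lowest of the class at 1.002, 0.765 and 0.997 FPKM in the KO libraries, against 1.39, 0.895 and 1.14 FPKM in the WT libraries. These ranges overlapped too, with a difference of -0.15 (SE 0.10, limma adjusted p = 0.482).

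On leaving out 1 library at a time, the difference of H2bc1 ran from -0.53 to -0.24, H2ac1 from -0.18 to -0.08, H3f4 from 0.10 to 0.33 and H2bfm from -0.24 to -0.07. By level the testis variants ran from H1f7 through H2bc1, H1f6, H3f4 and H2ac1 to H2bfm. The neighbours H2bc1, H1f6 and H3f4 overlapped across libraries, while H1f7, H2ac1 and H2bfm each stood clear of the next. Of the 6 differences, 4 were negative and 2 positive, with a median of -0.14, and 0 had an unadjusted p under 0.05. Since these are whole testes, fewer cells of a type and less RNA per cell cannot be told apart.

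General variants were led by H3f3a and H3f3b, which encode the same replacement H3 protein from different chromosomes. H3f3a was at 273, 305 and 277 FPKM in the KO libraries, against 286, 271 and 301 FPKM in the WT libraries. H3f3b was at 170, 189 and 176 FPKM in the KO libraries, against 174, 174 and 185 FPKM in the WT libraries. The groups overlapped in both, and the differences were -0.0047 (95% interval -0.14 to 0.13) for H3f3a and 0.0042 (95% interval -0.12 to 0.13) for H3f3b, with limma adjusted p-values of 0.974 and 0.975. The signs of both turn under other scalings. Together with H3f3c, these genes held 93.5% to 95.4% of the FPKM of the H3 members. H3f3c, a copy of H3f3a on chromosome 2 that RefSeq calls protein-coding and GENCODE a pseudogene, was at 16.3, 18.9 and 16.7 FPKM in the KO libraries, against 17.2, 16.02 and 16.5 FPKM in the WT libraries. It shares runs of 50 bases with H3f3a, so its level is uncertain, and its difference was 0.05 (limma adjusted p = 0.704).

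H1f10, a linker variant, was at 43.5, 45.5 and 48.4 FPKM in the KO libraries, against 42.9, 47.5 and 45.7 FPKM in the WT libraries, with a difference of 0.01 (SE 0.06, limma adjusted p = 0.932) whose sign turns when library totals are made equal. H1f0, the linker variant of cells that have stopped dividing, was at 4.72, 3.97 and 5.04 FPKM in the KO libraries, against 4.96, 5.89 and 5.24 FPKM in the WT libraries. KO replicate 3 lay just above WT replicate 1, and the difference was -0.19 (SE 0.09, limma adjusted p = 0.373), or -0.11 without KO replicate 2. H2afy3 was the one general variant whose groups did not overlap. This symbol, a transcribed pseudogene in RefSeq that lies inside the longer noncoding gene Pvt1, was at 7.01, 5.65 and 5.85 FPKM in the KO libraries, against 7.38, 8.41 and 8.53 FPKM in the WT libraries. Its difference was -0.35 (SE 0.09, 95% interval -0.54 to -0.15, limma adjusted p = 0.119). Without KO replicate 1, the highest of its group, the difference was -0.43 and the limma adjusted p 0.0470. Leaving out any other library kept it between -0.41 and -0.30, with limma adjusted p-values of 0.159 to 0.380.

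**Figure D2:**
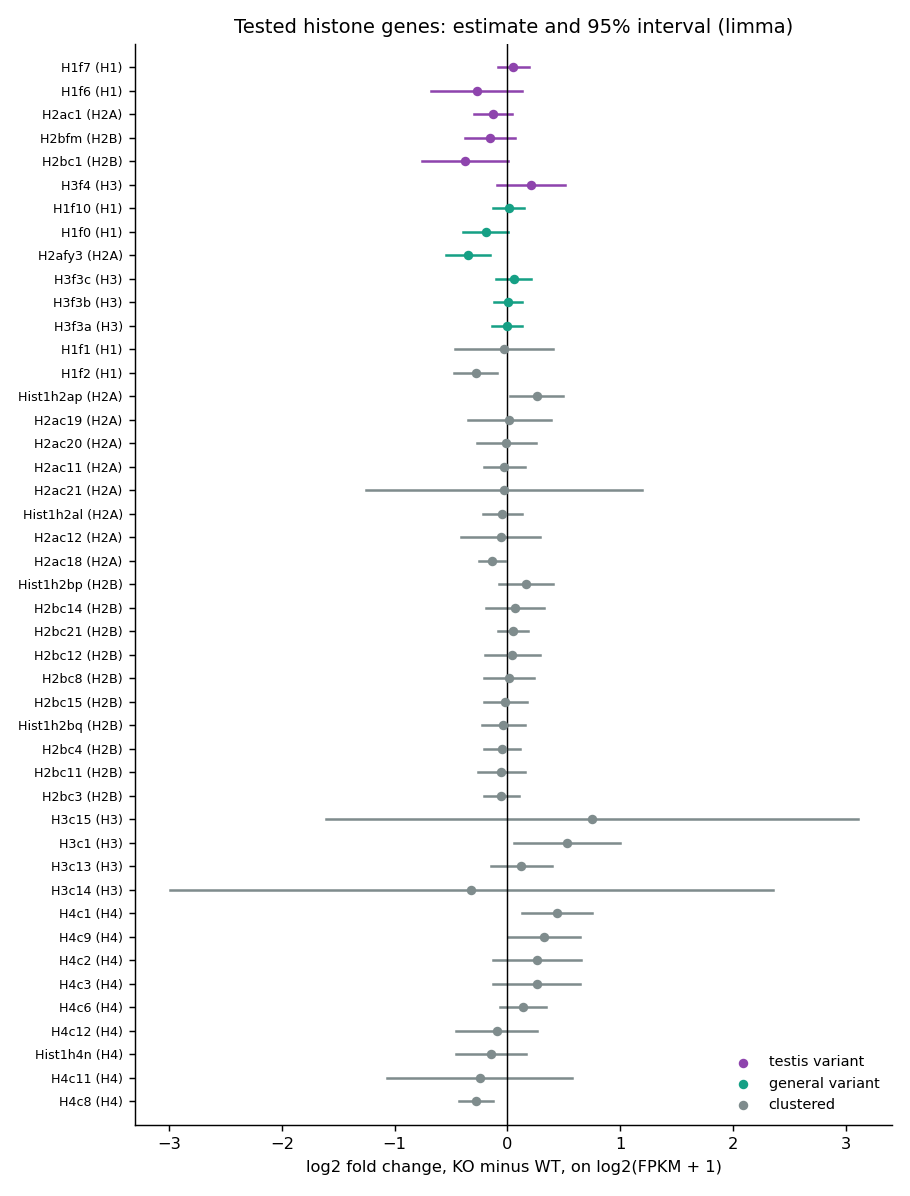
Difference between KO and WT on the log2(FPKM + 1) scale (horizontal) with its 95% interval from limma for each of the 45 tested members (vertical), grouped by class and histone type. Of the 45 intervals, 41 lie within -1 and 1, and the widest are those of the near copies H3c14 and H3c15.

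Clustered genes were dominated by one pair on chromosome 3. H2ac18 and H2ac19, H2A genes with the same stem-loop window, together held 62.2% to 68.2% of clustered FPKM. H2ac18 was at 315, 313 and 312 FPKM in the KO libraries, against 338, 331 and 366 FPKM in the WT libraries. All KO libraries lay below all WT libraries, with a difference of -0.14 (SE 0.05, 95% interval -0.25 to -0.02, limma adjusted p = 0.277). H2ac19 was at 58.1, 68.3 and 43.0 FPKM in the KO libraries, against 55.0, 56.4 and 53.2 FPKM in the WT libraries. KO spread to both sides of WT, and the difference was 0.02 (SE 0.15, limma adjusted p = 0.966). Both symbols stand on more than 1 row in each table and share runs of 50 bases, so the split between them is uncertain. The 2 rows of H2ac18 were close, at 163 and 152 FPKM in KO replicate 1 and 169 and 169 FPKM in WT replicate 1. Whether they list the same gene again was not tested, and the levels and shares given here rest on their sum. The sum of the pair was 373, 381 and 355 FPKM in the KO libraries, against 393, 388 and 419 FPKM in the WT libraries, again without overlap.

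At a mean level close to that of H2ac19 stood Hist1h2bp, the leading H2B member with 42.5% to 52.0% of the FPKM of that type among the 74. It was at 52.8, 66.2 and 57.7 FPKM in the KO libraries, against 51.9, 46.6 and 58.9 FPKM in the WT libraries. Its groups overlapped, and the difference was 0.16 (SE 0.10, limma adjusted p = 0.476), which was 0.08 without either KO replicate 2 or WT replicate 2. H2bc12 was at 12.3, 13.6 and 14.3 FPKM in the KO libraries, against 11.7, 11.8 and 15.5 FPKM in the WT libraries, with a difference of 0.04 (SE 0.11, limma adjusted p = 0.850). Among the 10 clustered genes with the highest means, those without an annotated stem-loop were the H2B genes H2bc4, H2bc21 and Hist1h2bq. They averaged 8.76 ± 0.44, 7.54 ± 0.25 and 4.63 ± 0.21 FPKM in KO, against 9.12 ± 0.71, 7.27 ± 0.24 and 4.78 ± 0.60 FPKM in WT (SD, n = 3 each). Their differences lay between -0.05 and 0.05, with limma adjusted p-values of 0.733, 0.715 and 0.853. No clustered H2B gene among the 10 tested had an unadjusted p under 0.05.

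Neighbouring H3c1 and H4c1, an H3 and an H4 gene 635 bases apart on chromosome 13, were the tested members that were higher in every KO library than in every WT library. H4c1, with 45.4% to 55.0% of the FPKM of the H4 members, was at 34.0, 40.2 and 35.9 FPKM in the KO libraries, against 26.5, 22.1 and 32.6 FPKM in the WT libraries. H3c1 was at 11.5, 11.8 and 11.01 FPKM in the KO libraries, against 7.44, 5.58 and 10.6 FPKM in the WT libraries. In both genes WT replicate 3 lay close under KO and WT replicate 2 was the lowest. The difference was 0.44 for H4c1 (SE 0.13, 95% interval 0.13 to 0.75, limma adjusted p = 0.223). For H3c1 it was 0.53 (SE 0.19, 95% interval 0.06 to 0.996, limma adjusted p = 0.305). Neither passed the threshold with all libraries, and both did so without WT replicate 3, at 0.58 for H4c1 (limma adjusted p = 0.0122) and 0.74 for H3c1 (limma adjusted p = 0.00409). Without WT replicate 2, the lowest library, they were 0.31 for H4c1 (limma adjusted p = 0.368) and 0.33 for H3c1 (limma adjusted p = 0.464). Leaving out any of the other 4 libraries left both above the threshold, with limma adjusted p-values of 0.252 to 0.696.

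WT replicate 2 was also the lowest library for H4c3, an H4 gene elsewhere in the array. H4c3 was at 12.9, 15.4 and 13.1 FPKM in the KO libraries, against 12.8, 8.47 and 13.4 FPKM in the WT libraries, with overlap and a difference of 0.26 (SE 0.16, limma adjusted p = 0.477), which was 0.07 without WT replicate 2. H4c9 (0.33, limma adjusted p = 0.341) and the H2A gene Hist1h2ap (0.26, limma adjusted p = 0.309) were the other members above 0 with an unadjusted p under 0.05, and their groups overlapped. Both were named after their values were seen.

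**Figure D3:**
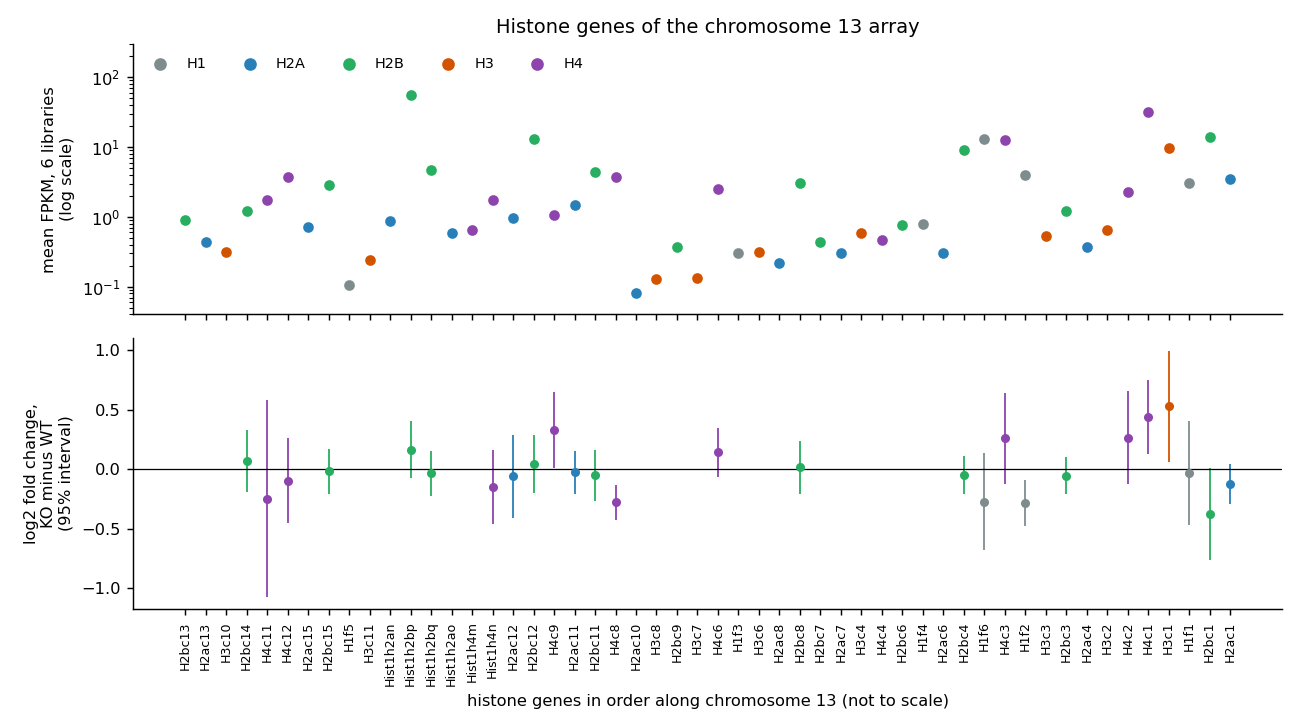
The 52 members of the chromosome 13 array with a RefSeq position (Hist1h2al lies elsewhere on that chromosome), in their order along it and not to scale (horizontal), coloured by histone type. Hist1h2ap, ambiguous in RefSeq, lies in the array by GENCODE and is not shown. The upper panel gives the mean FPKM over 6 libraries on a log axis, and the lower panel gives the difference between KO and WT on the log2(FPKM + 1) scale with its 95% interval for the 26 that were tested. H4c1 and H3c1 stand side by side with the 2 highest estimates of the lower panel.

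Among the tested clustered genes, H4c8 and H1f2 were lower in every KO library than in every WT library, as H2ac18 was. H4c8 encodes H4 like H4c1 and H4c3. It was at 3.48, 3.13 and 3.19 FPKM in the KO libraries, against 4.36, 4.05 and 4.12 FPKM in the WT libraries. The groups stood apart by more than the spread within either, with a difference of -0.28 (SE 0.07, 95% interval -0.43 to -0.13). Its limma adjusted p of 0.0985 was the smallest of any member and above the threshold. H1f2, a linker gene of the array, was at 3.74, 3.71 and 3.05 FPKM in the KO libraries, against 4.22, 4.90 and 4.28 FPKM in the WT libraries. Its difference was -0.28 (SE 0.08, 95% interval -0.47 to -0.09, limma adjusted p = 0.191). Thus H4 genes stood on both sides of 0: of 9 tested, 5 were above and 4 below.

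Summed by type, clustered H2A genes were at 389, 394 and 369 FPKM in the KO libraries, against 407, 404 and 435 FPKM in the WT libraries. Clustered H3 genes summed to 22.9, 22.3 and 20.5 FPKM in the KO libraries, against 17.1, 14.6 and 19.6 FPKM in the WT libraries. In these 2 sums the groups did not overlap, and the genes with the highest level in them were H2ac18 and H3c1. Clustered H4 summed to 65.2, 73.4 and 65.2 FPKM in KO, against 58.3, 47.9 and 65.3 FPKM in WT. H2B summed to 102, 116 and 108 FPKM in KO, against 99.9, 94.1 and 113 FPKM in WT. H1 was the lowest type at 8.55, 7.14 and 6.98 FPKM in KO, against 9.83, 8.54 and 8.22 FPKM in WT. In H1, H2B and H4 the groups overlapped.

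**Figure D4:**
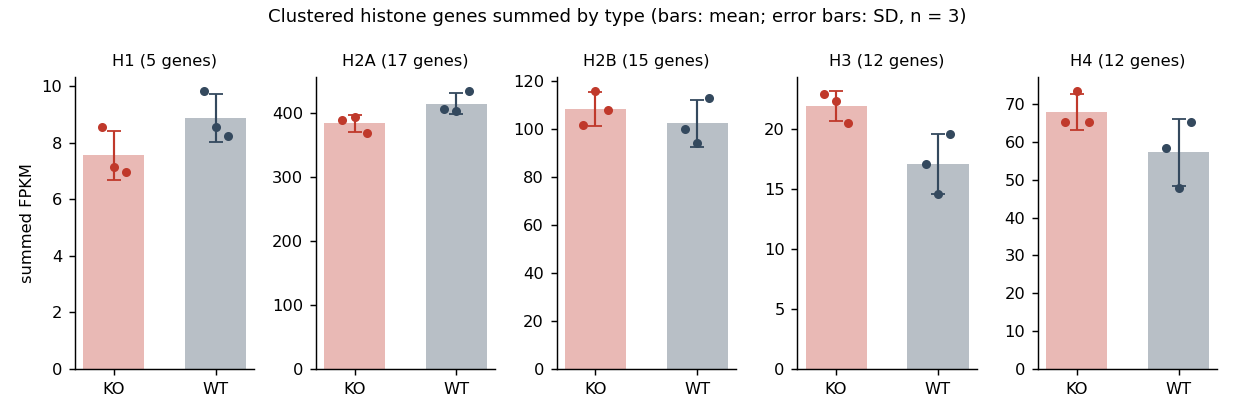
Summed FPKM (vertical, from 0 in each panel) of the clustered H1, H2A, H2B, H3 and H4 genes, with KO left of WT (horizontal), bars at the mean, error bars for the SD (n = 3) and 1 point per library. The KO points all lie below WT in the H2A panel and all above WT in the H3 panel.

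Sums over whole classes differed less between the groups. Clustered genes summed to 590 ± 22.0 FPKM in KO and 601 ± 36.7 FPKM in WT, general variants to 537 ± 26.9 in KO and 539 ± 21.1 in WT, and testis variants to 388 ± 10.2 in KO and 381 ± 27.3 in WT (SD, n = 3 each). The log2 ratios of these means were -0.03, -0.005 and 0.02, each within the spread of the libraries, and the first and the second turn sign under other scalings. Left without H2ac18 and H2ac19, the other 59 clustered genes summed to 220 ± 10.2 FPKM in KO and 201 ± 20.2 FPKM in WT, a log2 ratio of 0.13 with overlapping groups.

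Some of the least certain values were those of near copies, and how reads were shared between the copies was not tested. H3c14 and H3c15, H3 genes on chromosome 3 in the same neighbourhood as H2ac18 and H2ac19, share long runs of sequence. Each stands on 2 rows with nearly the same value, which were summed (for H3c15 in KO replicate 1, 2.292 and 2.292 FPKM). H3c14 was listed at 1.63, 0 and 2.89 FPKM in the KO libraries, against 1.84, 0 and 5.98 FPKM in the WT libraries. H3c15 was listed at 4.58, 5.78 and 2.997 FPKM in the KO libraries, against 3.54, 6.01 and 0 FPKM in the WT libraries. The library with 0 for one gene had the highest or near highest value for the other, and their limma intervals were the widest of all members. Their sum was nearly level, at 6.22, 5.78 and 5.88 FPKM in the KO libraries, against 5.38, 6.01 and 5.98 FPKM in the WT libraries.

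**Figure D5:**
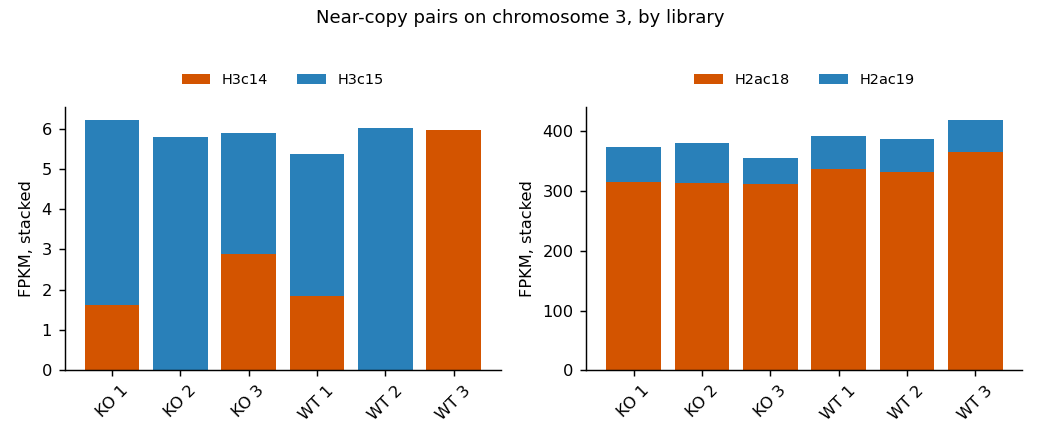
FPKM of H3c14 and H3c15 (left) and of H2ac18 and H2ac19 (right), stacked (vertical) in each of the 6 libraries (horizontal), KO left of WT. The share of H3c14 in its pair runs from 0 to the whole while the stacked height stays between 5.38 and 6.22 FPKM.

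Hist1h2ao and Hist1h2ap are H2A genes that likewise share sequence. Hist1h2ao was listed at 0.597, 0 and 0 FPKM in the KO libraries, against 0.837, 0.966 and 1.11 FPKM in the WT libraries, all KO values below all WT values. The sum of the pair was 1.96, 1.60 and 1.64 FPKM in the KO libraries, against 1.93, 2.41 and 1.97 FPKM in the WT libraries. In the sum only KO replicate 1 lay above a WT library, and the log2 ratio of the means was -0.28. H3c14, H3c15 and Hist1h2ao were named after their values were seen. In all, 61 members share a run of 50 bases with another member, 57 of them clustered genes, so single values of clustered genes carry this uncertainty throughout.

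Below the filter lay 29 members, 28 clustered genes and H1f8, the linker histone of oocytes. H1f8 was at 0.028, 0.030 and 0 FPKM in the KO libraries, against 0.036, 0.031 and 0 FPKM in the WT libraries, under the level of 3 fragments on 500 bases in every library. The highest mean among the 29 was 0.910 FPKM (H2bc13), and each library had 5 to 11 members under 0.151 to 0.215 FPKM. The groups did not overlap in 4 of the 29, beside 11.3% of all symbols that were above 0 and not tested: H2bc13 and H3c2 were higher in KO, and Hist1h2ao and Hist1h4m lower. H3c2, an H3 gene of the chromosome 13 array, was at 1.09, 0.862 and 0.637 FPKM in the KO libraries, against 0.621, 0.266 and 0.427 FPKM in the WT libraries. Hist1h4m, an H4 gene of that array, was at 0.381, 0.641 and 0.515 FPKM in the KO libraries, against 0.667, 0.942 and 0.761 FPKM in the WT libraries. H2bc13 was at 0.924, 0.967 and 0.980 FPKM in the KO libraries, against 0.820, 0.891 and 0.880 FPKM in the WT libraries. These 4 were named after their values were seen. When every symbol above 0 in at least 1 library was tested, all 74 members entered the fit and limma still called 0 of them, beside 0.415% of all genes in that fit, with 13 at an unadjusted p under 0.05, beside 11.5% of all genes.

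How large a difference could have been missed is read from the intervals. For 41 of the 45 tested members the 95% interval lay within -1 and 1 on the log2(FPKM + 1) scale, and the other 4 were H2ac21, H3c14, H3c15 and H4c11. Within -0.5 and 0.5 lay 32 intervals, of 24 clustered genes, 5 of the 6 general variants and 3 of the 6 testis variants. Changes of low genes are understated on this scale, so for them these are not bounds on the ratio of FPKM. The difference of H2bfm, for example, was -0.15 here and -0.29 with a pseudocount of 0.01.

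Genes of histone metabolism were read as 4 lists. Of 15 tested genes for making and processing histone messages, 0 were called by limma and 0 had an unadjusted p under 0.05. Slbp, which binds the stem-loop, averaged 28.2 ± 2.02 FPKM in KO and 30.1 ± 2.08 FPKM in WT, and Npat, which drives transcription at the histone arrays, 4.15 ± 0.17 FPKM in KO and 4.29 ± 0.09 FPKM in WT (SD, n = 3 each). Of 23 histone chaperones, 0 were called. At an unadjusted p under 0.05 lay 3, all lower in KO, beside 8.89% of all genes lower at that p (14.3% in either direction). They were Asf1b (-0.19, limma adjusted p = 0.254) and Chaf1a (-0.13, limma adjusted p = 0.315), which serve histones during DNA replication, and Ubn1 (-0.16, limma adjusted p = 0.325), which works with the H3f3a and H3f3b protein.

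Replication genes had the lowest median of the 4 lists. Of 18 tested, 0 were called, 5 had an unadjusted p under 0.05, all lower in KO, beside 8.89% of all genes lower at that p, and the median difference was -0.15, beside -0.04 over all genes. The 4 with the smallest p were the flap nuclease Fen1 (-0.23, limma adjusted p = 0.191), the helicase subunit Mcm5 (-0.21, limma adjusted p = 0.223), the ribonucleotide reductase subunit Rrm1 (-0.23, limma adjusted p = 0.264) and the primase Prim1 (-0.20, limma adjusted p = 0.278). The summed level of the list was 244 to 251 FPKM in KO and 258 to 273 FPKM in WT, without overlap. Of 12 genes that serve histone removal in spermatids, 0 were called, 0 had an unadjusted p under 0.05 and the median was -0.02.

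Markers of the cells that a testis holds were read beside the histones. All 8 spermatogonial markers were present and 6 were tested, with 0 called and 2 lower at an unadjusted p under 0.05, beside 8.89% of all genes. They summed to 38.5 to 43.9 FPKM in KO and 45.7 to 53.3 FPKM in WT, of which Uchl1 held the most (-0.38, limma adjusted p = 0.0864). Most of the gap between the sums was that of Uchl1. The mean sum was 40.8 FPKM in KO and 49.7 FPKM in WT, and Uchl1 alone averaged 22.7 FPKM in KO and 29.8 FPKM in WT. Sohlh1 (0.07) and Gfra1 (0.007) lay above 0, and the median difference of the list was -0.15. The 8 spermatocyte markers summed to 686 to 727 FPKM in KO and 695 to 735 FPKM in WT, and the 8 of round spermatids to 786 to 923 FPKM in KO and 774 to 865 FPKM in WT. The 8 of elongating spermatids summed to 35328 to 37545 FPKM in KO and 30135 to 34114 FPKM in WT, with 0 called and 3 higher at an unadjusted p under 0.05, beside 5.38% of all genes (Prm1, Prm2 and Tnp2). These 3 genes and Tnp1 (0.08) held most of the sum. The other markers of this list lay near 0: Oaz3 (0.042), Gapdhs (0.037), Odf1 (-0.035) and Smcp (-0.035). The median difference of the list was 0.06. Sertoli markers lay at 362 to 407 FPKM in KO and 384 to 435 FPKM in WT, and Leydig markers at 1520 to 1747 FPKM in KO and 1685 to 1749 FPKM in WT. Macrophage markers lay at 14.1 to 17.2 FPKM in KO and 16.7 to 19.3 FPKM in WT, and peritubular markers at 18.3 to 22.1 FPKM in KO and 20.2 to 27.4 FPKM in WT. No list had a called gene. The part of these differences in the histone values was not tested.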

How the data were processed

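Testis RNA was isolated with Trizol, and libraries were built with the NEBNext Ultra II Directional kit (per the labels' protocols). Sequencing used a HiSeq2500 (per the series design). HISAT2 and mm10 are named without versions, per the submitters' processing notes. Not given in the sources used here are the quantifier, the annotation, the strand setting and any poly(A) or ribosomal selection. Messages that end in a stem-loop lack a poly(A) tail, and the effect of RNA selection on their levels was not tested. The unit of the values deposited by the authors was read as FPKM from how they behave: totals of 393622 to 413604 per library, not whole, in steps of 1 fragment.

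Each table had 25910 rows. Rows of 1 symbol were summed (7 members stand on more than 1 row). Values were tested as log2(FPKM + 1) in limma 3.58.1 (R 4.3.3) with trend and robust empirical Bayes, 3 KO against 3 WT libraries, with Benjamini-Hochberg adjustment over all tested genes and no covariate. The fit was tested on simulated data. No further scaling was applied. Alternatives were 3 other scalings, 2 other pseudocounts, 2 other filters, no robust estimation, single-row symbols only, the replicate number as a block, and each library left out. Stem-loops were searched in GENCODE M21 and promoters in RefSeq, with 65 members matched by symbol, 8 by synonym and 1 ambiguous. Counting floors cover counting error only.

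The members, classes and lists were chosen with earlier results of these data known. The genes named are all testis and general variants, the 10 clustered genes with the highest means, the 3 uncalled members with the smallest p, and up to 4 genes per list with the smallest p. Slbp and Npat were added for their role after their values were seen. Any others are said to be chosen after their values were seen or are named as members of a count.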

Additional observations from a re-analysis of the deposited data

How the results depend on the processing

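No member was called by limma with all libraries under any of the other scalings, filters, pseudocounts, estimation or row settings, while leaving out a library gave 0 to 2 calls. Without KO replicate 1 there was 1 (H2afy3), and without WT replicate 3 there were 2 (H3c1 and H4c1). Over all genes the count of 149 became 88 with no filter and 50 with the replicate block, and 73 to 233 on leaving out a library. The block called 0 members, and H2bc1 had a limma adjusted p of 0.0952 with it, against 0.358 in the main fit. Same-numbered libraries did not deviate together (correlations 0.0647, -0.129 and 0.0614 for numbers 1, 2 and 3), and not every library correlated best with its own number. With 3 libraries per group these correlations cannot exclude that the numbers pair the samples. With single-row symbols only, the clustered sum had a log2 ratio of 0.14 against -0.03; H2ac18 and H2ac19 are then left out.

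Of 381 values of 24 named genes under 16 alternatives, 358 kept their direction and side of the threshold, 3 passed it (above) and 20 in 7 genes turned sign, at most 0.13 from 0, and the cause was not tested. With median-of-ratios scaling these were H3f3a (0.041) and Hist1h2bq (0.0039), with upper-quartile scaling H3f3a (0.028), and with equal totals H1f10 (-0.00053) and H3f3b (-0.0091). On leaving out a library, H1f10 ran from -0.028 to 0.049, H3f3a from -0.053 to 0.033, H3f3b from -0.037 to 0.037, H3f3c from -0.0064 to 0.094, H2ac19 from -0.13 to 0.20, H2bc12 from -0.019 to 0.17 and Hist1h2bq from -0.12 to 0.020. Depth limits the members under 1 FPKM, and shared sequence limits the split between near copies.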

Other observations

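Histone variants that the tables list under other prefixes numbered 15, of which 12 were tested, 0 were called by limma and 5 had an unadjusted p under 0.05, beside 1.15% called and 14.3% at that p among all tested genes. Hils1, a linker-like histone of elongating spermatids, was at 511, 536 and 522 FPKM in the KO libraries, against 480, 435 and 528 FPKM in the WT libraries. H2bl1, an H2B-like gene of spermatids, was at 344, 382 and 345 FPKM in the KO libraries, against 291, 303 and 326 FPKM in the WT libraries, without overlap (0.22, limma adjusted p = 0.170). H2ab3, a short H2A variant, was at 6.70, 8.95 and 7.40 FPKM in the KO libraries, against 6.06, 5.91 and 5.30 FPKM in the WT libraries, without overlap (0.36, limma adjusted p = 0.151). Lower in every KO library were H2ax, the H2A that is phosphorylated at DNA breaks (25.4, 24.4 and 27.4 FPKM in KO, against 28.2, 32.1 and 28.7 FPKM in WT, limma adjusted p = 0.254), and Macroh2a1 (30.6, 30.7 and 33.4 FPKM in KO, against 35.8, 35.8 and 35.7 FPKM in WT, limma adjusted p = 0.211). H2aw was lower in every KO library too, at 10.5, 10.1 and 11.4 FPKM in KO, against 14.8, 11.6 and 15.7 FPKM in WT (-0.36, limma adjusted p = 0.189). H2az1, the most abundant of the somatic variants here, was at 131, 135 and 135 FPKM in the KO libraries, against 131, 135 and 140 FPKM in the WT libraries. These genes were chosen after their values were seen.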
